A study of Mus musculus with 3 samples.

Results

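Hic1, the gene whose CreERT2 allele marked the mesenchymal progenitors (MPs) of this study, was followed through the chromatin of its own locus. Members were the peaks of open chromatin that overlapped Hic1 or the 50 kb on either side of it, on chromosome 11 of mm10. There were 20 such peaks of 190443 at embryonic day (E) 12.5, 18 of 102459 at E14.5 and 25 of 213613 at E16.5, which merged into 28 regions. Single-cell ATAC-seq, in which a transposase cuts and tags open DNA in each nucleus, was run on 1 library per stage, so no difference between stages has a replicate error and intervals below are 95% exact counting intervals only. All embryos were C57BL/6J and Hic1CreERT2/CreERT2;Rosa26LSLtdTomato/tdTomato, and their dams, older than 7 weeks, were gavaged with 7.5 mg tamoxifen in 300 uL sunflower oil at embryonic day 10, after which cells with Cre activity carried tdTomato. The tdTomato+ cells were sorted from pooled litters, of whole forelimbs at the first 2 stages and of the elbow segment at E16.5, with cells positive for blood, endothelial and CD117 markers gated out. Dispase was used at E12.5 and a collagenase mixture at the later stages, and the file headers name Cell Ranger ATAC 1.0.1 at the first 2 stages and 1.2.0 at E16.5. Between E12.5 and E14.5, stage and library therefore cannot be told apart from digestion. Between E14.5 and E16.5 they cannot be told apart from segment and the software version behind the peak calls. Between E12.5 and E16.5 none of these can be told apart. Both Hic1 alleles carried CreERT2 in all 3 libraries, and no library with wild-type Hic1 was analysed here.

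HIC1 (hypermethylated in cancer 1) is a transcriptional repressor with a BTB/POZ domain and zinc fingers that recruits corepressors such as CtBP, and it was first known as a tumour suppressor silenced by promoter methylation. In adult tissues such as muscle it marks quiescent MPs, and here its Cre allele served to trace MPs of the growing limb. ATAC-seq measures how often a stretch of DNA is cut, which is a property of chromatin and not a transcript level.

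Hic1 (ENSMUSG00000043099.4) lay at chr11:75164565-75169519 on the minus strand, 4955 bp in GENCODE, and RefSeq extends it to 75161377-75170255. The last exon of Smg6, a nuclease of nonsense-mediated decay, ended at 75164448 on the opposite strand, so the Hic1 3′ end faced the Smg6 3′ end and regions downstream of Hic1 lay in Smg6. On the other side stood the non-coding 1700016P03Rik, which hosts the miRNA genes Mir212 and Mir132, followed by Ovca2, Dph1 (an enzyme of diphthamide synthesis) and Rtn4rl1 (a Nogo receptor homologue). The following sequences (RefSeq, GRCm38, which has the coordinates of mm10) show the Hic1 start, the Smg6 element with the highest ratio in a comparison given further on, and the miRNAs under the peak next to the gene. The first holds the 250 bases upstream of the outer RefSeq start of Hic1, chr11:75170256-75170505, read on the minus strand, inside the peak that covered the gene at every stage. Of 3 motifs searched on both strands, its capitals mark those found. GGGCGG had 3 matches, and 32.7% of 32851 RefSeq promoters hold it in the same stretch. For CCAAT there were 2 matches and 33.8% of promoters, while AGGTCA, in 14% of promoters, was not in it. The second is the 187-base peak called at E14.5 in a Smg6 intron, chr11:75132372-75132558, plus strand, the core of the member with the highest ratio in nuclei with most cartilage-gene fragments at E16.5. Searched on both strands, it held no ACAAAG, which is in 14.5% of stretches of that length at the centres of the 213613 E16.5 peaks. It also held no TGTGGT (in 14.8% of those stretches), no TGANTCA (in 14.7%) and no AGGTCA (in 10.5%). The last lines are 2 of the 4 mature miRNAs encoded in the upstream peak, the 3p arms, which share the seed (bases 2 to 8) in capitals, whereas the 5p arms have other seeds.
Hic1 upstream 250 bases: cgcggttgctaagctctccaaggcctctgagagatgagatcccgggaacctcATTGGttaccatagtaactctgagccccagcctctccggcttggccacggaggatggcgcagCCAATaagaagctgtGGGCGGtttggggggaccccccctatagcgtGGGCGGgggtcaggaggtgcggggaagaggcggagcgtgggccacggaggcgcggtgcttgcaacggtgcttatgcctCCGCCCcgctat
Smg6 intron element: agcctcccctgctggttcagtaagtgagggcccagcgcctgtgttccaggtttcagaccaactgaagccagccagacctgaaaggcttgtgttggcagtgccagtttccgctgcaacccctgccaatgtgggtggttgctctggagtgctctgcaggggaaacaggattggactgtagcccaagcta
mmu-miR-212-3p: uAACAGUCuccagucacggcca
mmu-miR-132-3p: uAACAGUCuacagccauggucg

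The libraries held 8294, 20023 and 14048 nuclei with medians of 3070, 4496 and 13749 fragment equivalents in peaks per nucleus (the deposited counts, which are cut ends, divided by 2 and rounded up). Levels are counts per 1000000 counts in autosomal regions called in all 3 libraries (CPM), which held 85.0%, 96.0% and 80.4% of the counts in order of stage. Pairs of libraries shared 151 to 401 barcodes, and 6 were in all 3. The myogenic, endothelial, epithelial, blood and Schwann lists each had 6 genes with 7 to 62 peaks. Each summed to 77.5 to 179 fragments per 1000000 fragments in nuclei thinned to 1309. On that scale the progenitor list (Id1, Prrx1, Twist1 and others, 12 genes with 130 to 180 peaks) summed to 1637 to 1761. The chondrogenic list (Sox9, Col2a1, Acan and others, 17 genes with 110 to 270 peaks) summed to 920 to 1347. These sums were not divided by the number of peaks. At E14.5 the Schwann list had 105 from 7 peaks and the chondrogenic list 986 from 110. The sums therefore do not show that loci of other cell types were less open.

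The Hic1 gene was covered by an open domain at every stage. At E12.5 a single peak, 75164140-75174187, ran 10048 bp from the Smg6 3′ end over Hic1 to the miRNA genes and held 143 CPM (139 to 147), with a fragment in 31.0% of nuclei. At E14.5 the domain was called as separate peaks, one over the gene (75164871-75171078, 6208 bp, 96.3 CPM, 94.3 to 98.2, in 33.2% of nuclei) and one upstream over 1700016P03Rik, Mir212 and Mir132 (75171907-75174090, 2184 bp, 45.7 CPM, in 18.3%). At E16.5 it was again a single peak, 75164480-75174613, of 10134 bp with 119 CPM (118 to 121), present in 63.2% of nuclei of a deeper library. The gene peaks held the highest CPM of the window in each library and between 27.9% and 38.7% of the counts of all its peaks.

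The level of the Hic1 domain was lowest at E16.5 once the split peak was joined, and the order of the first pair of stages depended on the scale. The merged domain had 143, 142 and 119 CPM in order of stage, and 14.2, 16.9 and 11.8 CPM per kb of called peak, so E16.5 was the lowest on both scales and E14.5 had the highest density. The order per kb was not particular to the domain. All window peaks together had 10.5, 14.7 and 8.13 CPM per kb, over called widths of 35162, 23468 and 43793 bp. Per 1000000 of all counts in peaks, the merged domain was at 122, 136 and 95.9, so that E14.5 was the highest there too. By the rule used for every gene (peaks on the gene body or 2000 bp upstream, scaled to autosomal regions called in all 3 libraries), the log2 ratio of Hic1 was -0.57 at E14.5 against E12.5, 0.31 at E16.5 against E14.5 and -0.26 at E16.5 against E12.5. These 3 ratios fell at percentiles 7.69, 86.4 and 23.0 of 15875 genes, whose medians were 0.15, -0.17 and 0.01. With the merged domain the first became -0.01 and the second changed sign to -0.25, and per kb of merged domain they were 0.25 and -0.52, so that the order of the first pair turned as well. The ratio of E16.5 to E12.5 was negative under every scaling and peak set tried, from -0.37 to -0.06. Against all genes, Hic1 stood at the 95.1, 88.6 and 92.9 percentile of CPM per gene in order of stage, and at the 64.6, 44.5 and 58.8 percentile of CPM per kb.

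**Figure D1:**
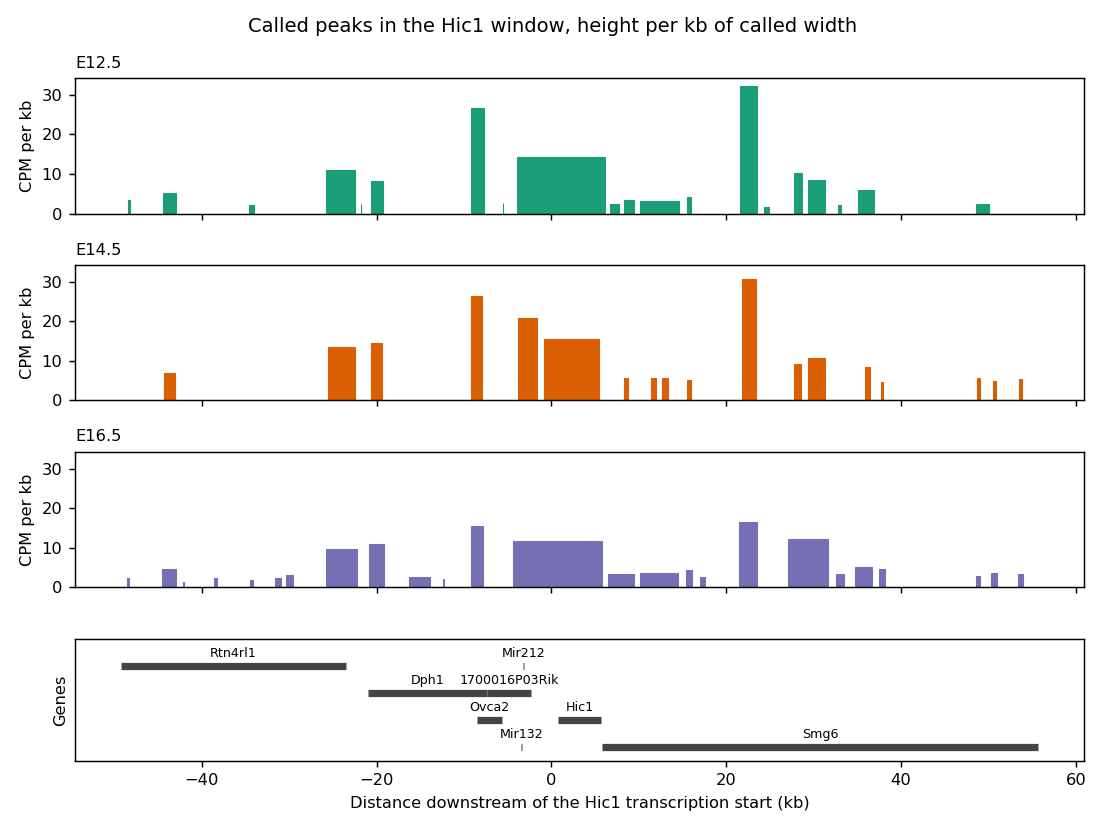
Peaks within 50 kb of Hic1 in each library, by distance (kb) downstream of the Hic1 start, with the genes below. Bar heights are CPM per kb of called width and bar widths are called widths, so bar areas follow CPM: the domain over Hic1 is the broadest, and at E14.5 it is called as separate peaks.

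Of the 28 regions, 12 (42.9%) were called in all 3 libraries, against 31.8% of the 266531 regions of the series, and 7 (25%) in the E16.5 calls only, against 27.5%. In both later libraries, the first and last, and E12.5 alone, 3 (10.7%) each were called, against 2.82%, 17.1% and 19.5% of all regions. The whole window held 370, 345 and 356 CPM in order of stage, or 315, 331 and 286 per 1000000 of all counts, while single members differed more and in opposite directions. A region over an exon and intron of Smg6, chr11:75138638-75143166, had 26.9, 28.8 and 55.4 CPM in order of stage, and at E16.5 its separate peaks joined into one of 4529 bp open in 40.2% of nuclei. Called widths were 2966, 2774 and 4529 bp, and per kb the levels were 9.06, 10.4 and 12.2 CPM, a smaller difference in the same order. The neighbouring Smg6 intron region, chr11:75146755-75148782, was in the reverse order, with 62.5, 49.8 and 33.4 CPM at a nearly constant width (1939, 1628 and 2014 bp), or 32.2, 30.6 and 16.6 CPM per kb. Both lay downstream of Hic1, inside the Smg6 gene.

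The Ovca2, Dph1 and Rtn4rl1 promoters upstream of Hic1 differed less in CPM than these Smg6 regions, but not per kb. The Ovca2 promoter peak had 38.7, 31.6 and 22.6 CPM in the same order. The Dph1 promoter had 12.1, 19.6 and 18.7 CPM and the Rtn4rl1 promoter 37.2, 41.3 and 34.0 CPM. A Smg6 region 37797 bp downstream of the Hic1 start, chr11:75132137-75132779, had no called peak at E12.5, was the 187-bp peak printed above at E14.5 (0.852 CPM, 0.624% of nuclei) and was called over 643 bp at E16.5 (2.94 CPM, 3.26% of nuclei of a deeper library). Per kb of called peak the 2 values were 4.55 and 4.57 CPM, so the density was nearly the same. Of the 7 members with calls only at E16.5, the deepest library, 6 were below 3 CPM.

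The share of nuclei with a Hic1 fragment followed depth, so every nucleus was thinned to 1309 fragments (the 25th percentile of E12.5) and shallower nuclei were left out. At that depth 12.3% of 6221 nuclei at E12.5 (11.5 to 13.1), 10.0% of 19521 at E14.5 (9.59 to 10.4) and 11.2% of 13834 at E16.5 (10.7 to 11.8) had a fragment in the gene peaks. The E14.5 interval overlapped neither of the others, which overlapped each other. With another seed the shares were 12.6% (11.8 to 13.4), 10.6% and 11.5%, and the E14.5 and E16.5 intervals overlapped slightly. With the upstream peak joined, E14.5 had 14.3% (13.8 to 14.8) and was the highest, so the order of the stages depended on how the domain had been split. The 1309 fragments were drawn from each library's own peaks. Autosomal regions called in all 3 libraries held 85.0%, 96.0% and 80.4% of those counts in order of stage. Depth was therefore not matched within shared regions, and how far this set the order of the stages was not tested. For the whole window the shares were 31.4%, 32.1% and 29.9%. Nuclei with a Hic1 fragment had a slightly higher share of fragments at promoters than nuclei without one (41.6% and 40.4%, 53.0% and 52.4%, and 40.2% and 39.5% in order of stage). From the lowest to the highest of 5 equal classes of promoter share, the share of nuclei with Hic1 was 10.0% and 15.7% in the first library, 9.07% and 11.6% in the second and 9.29% and 14% in the last, with separate intervals each time. The Hic1 gene peaks were themselves promoter peaks in every library and counted in this share, so a rise was built in. Whether it exceeded that of other promoter peaks was not tested. Nuclei with Hic1 also had more fragments before thinning (medians 4830 and 4344, 4886 and 4584, 14220 and 13900).

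**Figure D2:**
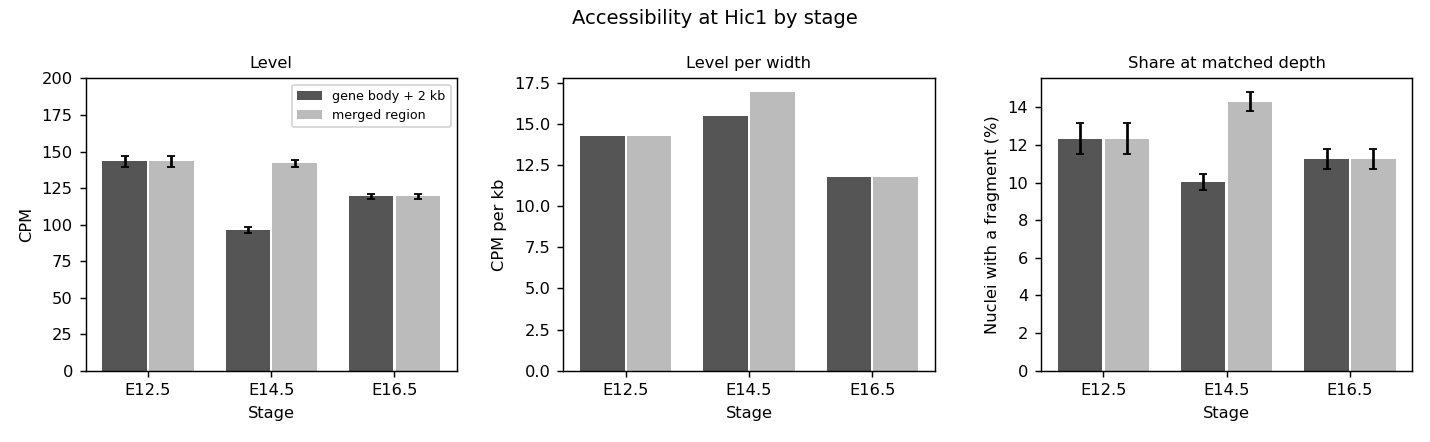
Hic1 gene peaks (dark bars) and the merged domain (light bars) by stage, as CPM, CPM per kb of peak and percent of nuclei with a fragment after thinning to 1309 fragments, with 95% counting intervals on the first and last. Dark and light bars differ only at E14.5, where the CPM are 96.3 and 142.

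At matched depth, few lineage loci opened with or against Hic1. For each locus the share of nuclei with a fragment was compared between nuclei with and without a Hic1 fragment, and a locus was called when the ratio fell under 0.8 or passed its inverse and the intervals did not overlap. At E12.5 none of 149 loci of the 16 marker lists was called, against 0.674% of 17504 genes called higher and 0.383% lower. At E14.5, 1 of 143 was called higher and 1 lower (0.557% and 0.527% of 16519 genes): Comp, a cartilage and tendon matrix protein, was open in 5.99% of nuclei with Hic1 and 4.63% without (ratio 1.29), and Prg4, the joint lubricant lubricin, had a ratio of 0.219, from fragments in 2 of 1954 nuclei with Hic1. At E16.5, 1 of 152 was higher and 2 were lower (0.701% and 0.435% of 17698 genes): Myh11, a smooth muscle myosin of mural cells, at 1.46, Lum, a collagen-binding proteoglycan, at 0.585, and Cldn1, a tight junction protein of perineurium, at 0.613. Among nuclei of like promoter share these 5 ratios were 1.27, 0.223, 1.47, 0.579 and 0.625, all past the same limits.

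None of these calls remained when the thinning was repeated with another random seed, which called other loci, among them Id1 and Rarg higher at E12.5, Col9a1 and C1qtnf3 lower at E14.5, and Notch3 higher and Cyp26a1 lower at E16.5. With that seed 0.64%, 0.581% and 0.757% of all genes were called higher and 0.36%, 0.551% and 0.39% lower, in order of stage. Over all genes, 5 of 185, 4 of 179 and 6 of 201 called genes had the same call with both seeds. With 1 or 2 loci called in a direction, the panel shares were also close to the background, and they are not a result about these loci.

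The deeper libraries allowed a closer reading, with each thinned to its own 25th percentile (1309, 2529 and 7187 fragments). Hic1 was then seen in 19.5% of E14.5 and 47.3% of E16.5 nuclei, and the ratios of all genes open in at least 5% of nuclei drew in to 0.930 to 1.09 (5th to 95th percentile, median 1.01) at E16.5. Only Col9a3, a collagen IX chain of cartilage, was called, lower at E14.5 (ratio 0.773, background 0.188% lower and 0.133% higher), and no panel locus at E16.5 (0.0339% higher, 0.096% lower).

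Of the 9 mesenchymal lists, the chondrogenic list had the lowest median ratio at E16.5 at this depth, although no single locus of it was called there. The blood list, with 4 loci, was lower (0.914), and at 1309 fragments the perineural list (0.891) was below the chondrogenic (0.941). Since the depth used differed between libraries, the stages are given side by side only. Chondrogenic loci were taken when open in at least 1% of nuclei at 1309 fragments. Their median ratio was 0.982 at E12.5 (5 of 15 above 1), 0.959 at E14.5 (6 of 16) and 0.929 at E16.5 (1 of 17). All genes open in at least 5% of nuclei at own depth had medians of 1.01 at each stage. Of those genes, 46.1%, 44.4% and 42.4% were below 1 in order of stage. Loci of a list were read in the same nuclei, so they are not separate observations. Among nuclei of like promoter share the chondrogenic medians were 0.969, 0.95 and 0.877, with 0 of 17 loci above 1 at E16.5. No share of all genes was computed in these classes. At E16.5 the chondrogenic ratios ran from 0.867 for Col9a1 to 1.01 for Comp. At E14.5 they ran from 0.773 for Col9a3 to 1.08 for Sox9, the master regulator of chondrocytes, and at E12.5 from 0.797 for Acan (aggrecan) to 1.49 for Matn1. Reading the same relation from the other side, at 1309 fragments the share of nuclei with Hic1 was 11.7% (10.9 to 12.6) in E16.5 nuclei with no chondrogenic fragment and 8.70% (6.95 to 10.7) in those with 4 or more. The corresponding values were 9.95% (9.21 to 10.7) and 7.67% (6.16 to 9.41) at E14.5 and 12.3% and 11.6% at E12.5, with overlapping intervals at both stages. For the progenitor list the share of nuclei with Hic1 was 11.5% at 0 and 10.9% at 4 or more fragments at E16.5, with overlapping intervals.

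The progenitor, tenogenic and both fibrogenic lists had medians near 1 at E16.5. At E16.5 the median ratio was 1.0 for the progenitor list (Osr2, an odd-skipped transcription factor, 0.969 to Twist1, which maintains limb mesenchyme, 1.07), 1.01 for the tenogenic list (Tnmd, tenomodulin, 0.879 to Kera, keratocan, 1.05), 1.0 for the fibrogenic list (Lum 0.920 to Pi16, a marker of universal fibroblasts, 1.11) and 1.01 for the dermal fibrogenic list (Rspo1, a Wnt agonist, 0.959 to Axin2, a Wnt target, 1.08). At E14.5 these 4 lists had medians of 1.03, 1.02, 0.967 and 1.01, and the fibrogenic list, with 3 of 15 loci above 1, was close to the chondrogenic one. Their ranges at E14.5 were Tcf7l2 0.968 to Snai1 1.1, Fmod 0.905 to Htra3 1.1, Postn 0.832 to Pi16 1.13, and Rspo1 0.927 to Crabp1 1.05. At E12.5 the medians were 0.970, 0.884, 0.914 and 0.939 with wider ranges, from 0.328 for Tnmd (4 nuclei with Hic1) to 1.43 for Col7a1. The list of HIC1 partners and targets (Ctbp1, Sirt1, Trp53 and others) had medians of 0.937, 1.03 and 1.02, and the retinoid list (Rara, Crabp2 and others) 1.09, 1.01 and 0.998.

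**Figure D3:**
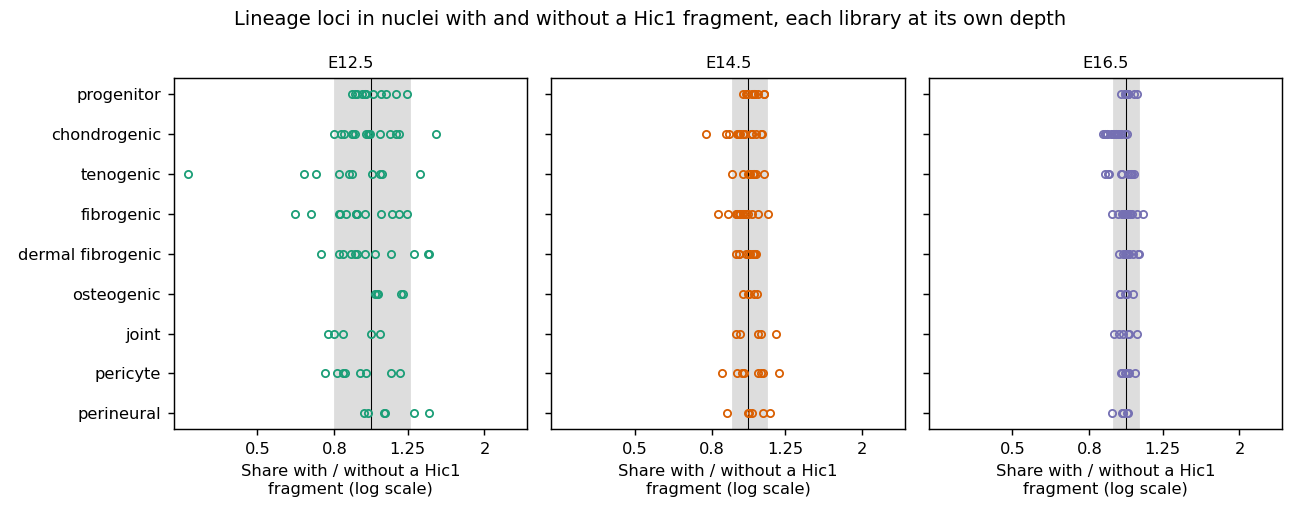
Ratio, on a log axis, of the share of nuclei with a fragment at each lineage locus in nuclei with a Hic1 fragment to that in nuclei without, for each library at its own depth. Points are loci open in at least 1% of nuclei and the grey band is the 5th to 95th percentile of all genes open in at least 5%. At E16.5 the chondrogenic points lie to the left, with a median of 0.929.

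Because single nuclei gave few calls, the window was also compared between the nuclei with most fragments at a list's loci and all others, a comparison added after these results were seen. The limit was set to take at least 10% of a library, and tied counts made the sets larger, with a median of 14.9% and up to 35.4% of nuclei (joint and pericyte at E12.5, where 1 fragment was enough). Such nuclei are a range along a score and not a cell type. At E16.5 the chondrogenic nuclei were the 1252 with at least 11 fragments over the chondrogenic loci, and 511 nuclei lay within 1 fragment of that limit. They held a median of 15 chondrogenic fragments against 5 in the 9285 others, with 7 against 9 fibrogenic and 13 against 12 progenitor fragments.

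In the main setting the Hic1 gene peaks were not called in any set of such nuclei. Over 48 comparisons (16 lists at 3 stages) the ratio of Hic1 fragments per 1000000 fragments in peaks (FPM) ran from 0.811 to 1.14, and 0 were called by the rule above. The intervals were separate in 4 comparisons, all at E16.5. With the merged domain they were separate in 1 more, the nuclei with most fragments at HIC1 partners and targets at E14.5 (148 against 129 FPM, ratio 1.15), and 0 were called. The chondrogenic nuclei had 76.8 FPM at Hic1 (71.2 to 82.7) against 94.7 (92.4 to 97.1) in the others, a ratio of 0.811, and a share of nuclei with Hic1 of 41.0% (38.2 to 43.8) against 48.1% (47.1 to 49.2). That ratio was at the 10.9 percentile of 15146 genes, whose ratios ran from 0.699 to 1.45 (5th to 95th percentile). The chondrogenic nuclei also differed in promoter share (44.0% against 39.2%), and when compared among nuclei of like promoter share the ratio was 0.708, past the limit of 0.8. That value had no interval of its own and was not ranked among genes. With a limit set for the top 5% of nuclei the Hic1 ratio was lower than 0.811 and was called, also without such a rank. The other 3 with separate intervals were higher: 101 against 91.2 FPM in progenitor nuclei (ratio 1.11, the 82.3 percentile of genes), 102 against 90.9 in perineural nuclei (1.12, the 94.5 percentile) and 103 against 91.0 in nuclei with most fragments at HIC1 partners and targets (1.14, the 76.9 percentile). These 3 ratios are not matched for promoter share. At E12.5 and E14.5 the chondrogenic ratios were 0.975 and 0.931 with overlapping intervals.

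**Figure D4:**
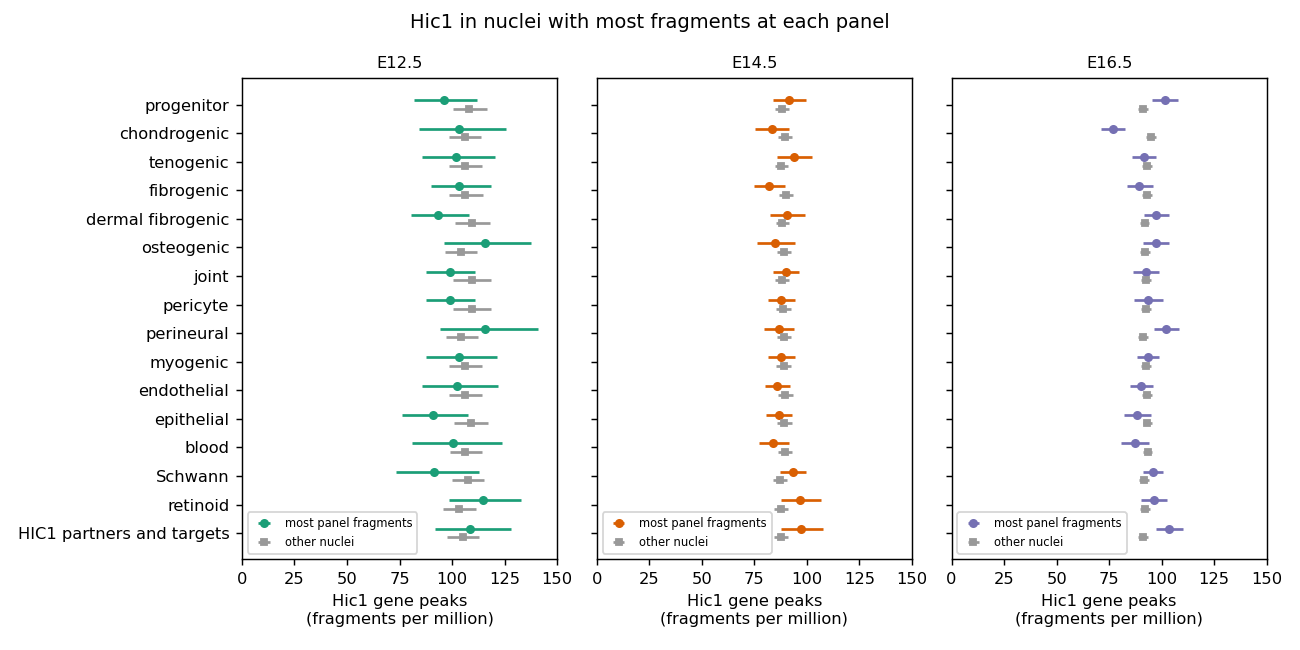
Hic1 gene peak fragments per 1000000 fragments (FPM) in nuclei with most fragments at each list's loci (coloured) and in all other nuclei (grey) of each library, with 95% counting intervals. The lowest ratio is that of the chondrogenic list at E16.5, 76.8 against 94.7.

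Single window peaks had a wider range of ratios than the gene peaks, which held the most counts of the window. Over 1008 comparisons of window peaks, 20 were called higher and 22 lower. At E16.5, 18 were higher and 20 lower of 400, where over all lists 5.42% of peaks were higher and 6.09% lower. At E14.5 it was 2 and 1 of 288 (1.07% and 0.998%), and at E12.5 0 and 1 of 320 (0.266% and 0.153%). At E14.5 and E16.5 window peaks were thus called no more often than all peaks. For the chondrogenic nuclei at E16.5, 4 of 25 window peaks were called higher and 7 lower, against 11.8% and 20.0% of all peaks, so the window was near the background in number. At E14.5 none of the window's 18 peaks was called for these nuclei (5.65% higher and 4.79% lower of all peaks), and 1 of 20 was lower at E12.5 (0.412% and 0.154%), chr11:75133346-75135145, from 2 fragments.

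The highest ratio in chondrogenic nuclei was that of the Smg6 intron element at chr11:75132137-75132779, which contains the sequence printed above. In E16.5 chondrogenic nuclei it had 118 fragments, or 13.1 FPM (10.9 to 15.7), against 93 fragments, or 1.39 FPM (1.12 to 1.71), in the others, a ratio of 9.41 (6.93 to 12.3 over the alternatives tried). This was the 99.2 percentile of 129179 peaks with enough fragments to compare. The element was picked as the highest of the 25 window peaks, so this is not the rank of a peak named beforehand. It was also higher in the joint nuclei (ratio 2.61, with 4.06% of all peaks called higher and 4.3% lower) and lower in the fibrogenic (0.486, 5.87% lower) and perineural (0.462, 3.75% lower) nuclei. These sets are not separate from the chondrogenic score. Chondrogenic nuclei held on average 3.36 joint fragments against 2.3, and 5.17 perineural against 5.84. Fibrogenic nuclei held 4.87 chondrogenic fragments against 6.67. At E14.5 the 187-bp peak had 6 fragments in chondrogenic nuclei and 31 in the others, a ratio of 1.28 that was not called.

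Of the 7 members called lower in the same nuclei, 6 lay between this element and Hic1. The Smg6 region chr11:75138638-75143166 had 18.7 FPM against 45.0, a ratio of 0.415 with separate intervals, and the intron region chr11:75146769-75148782 had 17.9 against 26.8 (0.668). The other lower members were 75133594-75135541 (0.612), 75152710-75153291 (0.270, from 4 fragments, and 1.30 at the common depth), 75155763-75160072 (0.488), 75160853-75163817 (0.476) and the Dph1 exon peak 75184105-75186603 (0.359). Higher were the Dph1 promoter (21.8 against 13.6 FPM, 1.60) and the far Smg6 peaks 75116340-75116832 (2.73) and 75119225-75119927 (2.45), both of which were also higher in tenogenic nuclei (2.09 and 2.24, the first 0.940 without the deepest 5% of nuclei, with 5.41% of all peaks higher and 6.73% lower).

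The most open Smg6 members also differed between other sets of nuclei at E16.5, which are again ranges along scores. Of the 25 window peaks, 1 was called higher and 3 lower (12%) in fibrogenic nuclei and 1 and 1 in dermal fibrogenic nuclei. There were 1 and 2 (8%) in osteogenic nuclei and 1 and 1 in perineural nuclei, where 1 peak is 4%. Only the fibrogenic lower share and both perineural shares were above those of all peaks, so these are values of single members. The region 75138638-75143166 was higher in fibrogenic nuclei, with 54.6 FPM (49.9 to 59.7) against 40.2 (38.6 to 41.7), a ratio of 1.36 where 5.47% of all peaks were higher. The region 75146769-75148782 was lower in dermal fibrogenic (0.599, 10.2% of all peaks lower and 11.7% higher), osteogenic (0.596, 9.61% lower and 11.1% higher) and fibrogenic nuclei (0.796) and higher in perineural nuclei, with 33.2 against 24.4 FPM (1.36, 2.15% higher). The first of these is the Smg6 region with its highest level at E16.5, and the second the one with its lowest level there. The dermal fibrogenic and osteogenic sets were not separate in content. Dermal fibrogenic nuclei held on average 4.03 osteogenic fragments against 2.98, and osteogenic nuclei 6.85 dermal fibrogenic against 5.4.

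Nuclei with most fragments at epithelial loci (at least 3 fragments, a median of 4 against 0 in the others) also differed, where 16.3% of all peaks were higher and 16.5% lower. Of the 25 window peaks, 5 (20%) were higher and 2 (8%) lower. A 77-bp peak in a Dph1 intron, chr11:75182562-75182638, had 15 fragments in these 1214 nuclei and 4 in the 9323 others (ratio 28.8). The Dph1 exon peak (2.21), the Dph1 promoter (1.36, but 0.944 at the common depth), the Rtn4rl1 promoter (1.47) and chr11:75199883-75200586 (2.51) were higher too, while both Smg6 regions above were lower (0.626 and 0.659). The Hic1 gene peaks had 88.3 against 93.2 FPM there, with overlapping intervals. Whether doublets or epithelial cells were among these nuclei was not tested. In its E16.5 forelimb RNA data, the paper found and removed small groups of contaminating epithelial cells.

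**Figure D5:**
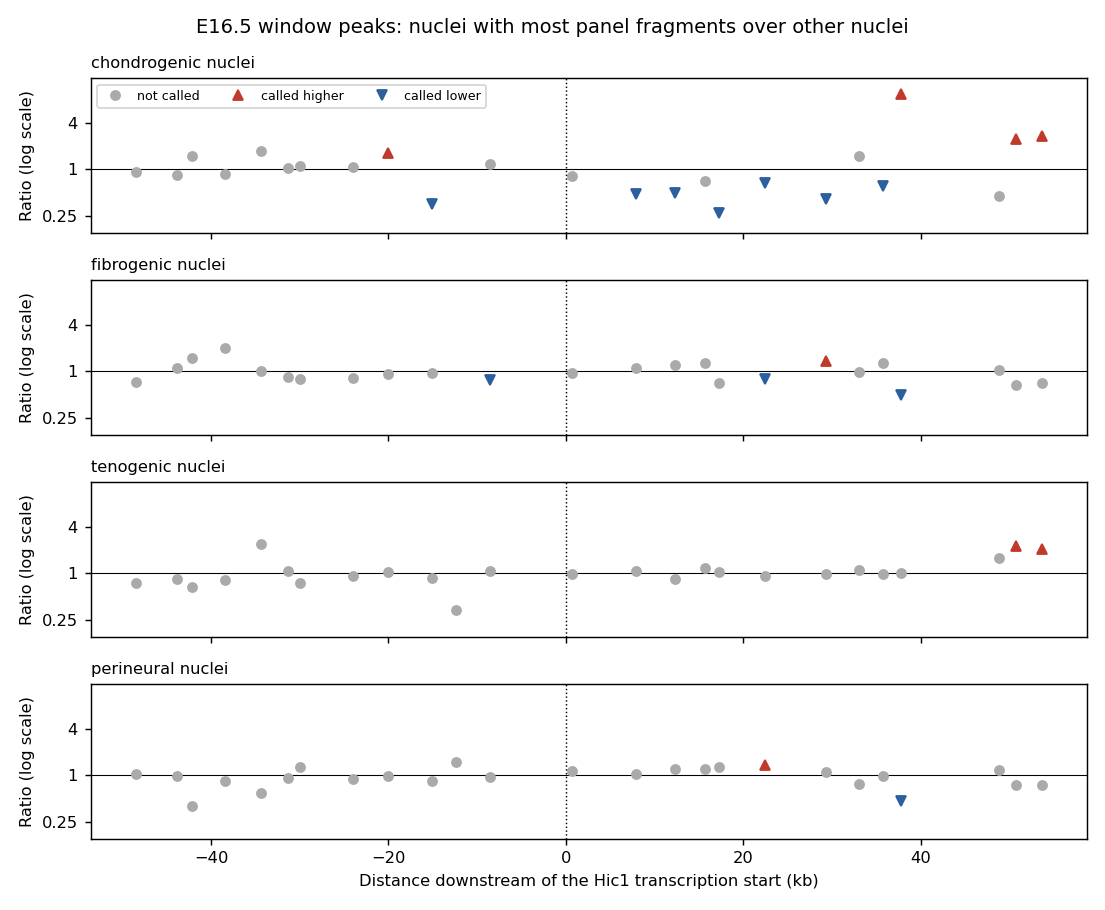
Ratio, on a log axis, of FPM in nuclei with most chondrogenic, fibrogenic, tenogenic or perineural fragments to that in all other nuclei, for each E16.5 peak of the Hic1 window by distance (kb) downstream of the Hic1 start. Triangles are called peaks, and peaks with no fragment in these nuclei are left out. The element 37797 bp downstream reaches 9.41 in chondrogenic nuclei, while the Hic1 domain lies at 0.811.

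The other window peaks were also compared between nuclei with and without a Hic1 fragment. At 1309 fragments 1 of 19 was called at E12.5, where 0.23% of all peaks outside the window were called higher and 0.116% lower. It was the Rtn4rl1 promoter peak, open in 5.75% of nuclei with a Hic1 fragment and 3.65% of those without (ratio 1.58), and it was called again with another seed (ratio 1.94, background 0.232% higher and 0.12% lower). At E14.5, 1 of 17 was called (0.409% higher, 0.499% lower), the upstream peak over Mir212 and Mir132, open in 6.50% and 4.76% (1.37). With another seed its ratio was 1.12 and the Smg6 intron peak chr11:75146857-75148484 was called in its place (1.36, background 0.383% higher and 0.529% lower). At that library's own depth the upstream peak was open in 11.6% (10.5 to 12.8) and 9.42% (8.91 to 9.96), a ratio of 1.23 with separate intervals that fell short of the limit (0.244% higher, 0.529% lower). The Rtn4rl1 promoter peak, 75192735-75195780, was open there in 10.5% (9.46 to 11.7) and 8.64% (8.15 to 9.16), also with separate intervals and not called (1.22). At E16.5 none of 24 was called at 1309 fragments (0.291% higher, 0.224% lower), with another seed (0.267% and 0.221%) or at its own depth (0.144% and 0.635%), where the Smg6 region 75138638-75143166 had separate intervals, 26.1% (24.9 to 27.4) and 23.4% (22.3 to 24.5), and a ratio of 1.12. The background shares in this paragraph are of peaks that met both the ratio limit and separate intervals. The share of all peaks with separate intervals alone was not computed, so how common such uncalled differences are was not tested.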

How the data were processed

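Per the labels and file headers, the authors sorted tdTomato+ cells, made 1 10x Genomics single-cell ATAC-seq library per stage and called peaks in each library alone with Cell Ranger ATAC on mm10, and deposited the raw counts of cut ends per peak and nucleus, with no normalization. The submitters' notes name Cell Ranger ATAC 1.1.0 with bcl2fastq, and the file headers name 1.0.1 for E12.5 and E14.5 and 1.2.0 for E16.5. The deposited counts summed to 87048167, 204289151 and 413425059 in order of stage, and 94.1%, 89.5% and 92.5% of entries were even, as 2 cut ends make a fragment. Each entry was therefore halved and rounded up to fragment equivalents. Intervals are exact Poisson or binomial intervals on these and cover counting error only.

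Peaks were joined to genes (GENCODE) when they overlapped the body or 2000 bp upstream, and peaks of different libraries overlapping by 1 bp were merged into regions. CPM and log2 ratios were scaled to counts in autosomal regions called in every library. Nuclei were thinned at random to a fixed number of fragments, with no doublet caller and no other filter. No p-value was computed, since each stage has 1 library. The ratio scripts were tested on simulated data. Python 3.11.15, numpy 2.4.6, scipy 1.17.1, pandas 2.3.3, matplotlib 3.10.9 and pysam 0.24.0 were used.

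The window, the marker lists and the comparisons were chosen with earlier results of these data known. The rule was to name all window peaks, every panel locus called, and the 5 highest and 5 lowest genes by mean co-opening. The highest and lowest locus per list are given for 5 mesenchymal lists at each library's own depth, not for all 16 lists, because ratios at 1309 fragments changed with the seed. Of the alternatives, 15 were planned and 16 were added after the data were seen, among them the comparison of nuclei with most lineage fragments. In further departures from it, window peaks that were low or not called are mostly given by count only, and 1 locus called with another seed is not reported here.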

Additional observations from a re-analysis of the deposited data

How the results depend on the processing

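No paired analysis was possible because each stage has 1 library. Of the values recomputed under alternatives, 196 stayed within the limit set for them, 95 moved past it and 23 changed direction. The limit was counting error for levels, shares and ratios, and a set factor for counts of called loci. Part of the agreement was fixed in advance. The promoter peaks were the gene peaks in every library, and the merged domain was the gene peak at E12.5 and E16.5. For E12.5 its own depth was the common depth. The log2 ratio of Hic1 at E14.5 against E12.5 was -0.40 scaled to all counts, -0.72 scaled by the median ratio, -0.10 over the whole window, -0.52 without the deepest 5% of nuclei, -0.012 for the merged domain, -0.053 for the RefSeq gene and 0.12, 0.25 and 0.48 per kb of gene peaks, merged domain and window. At E16.5 against E14.5 it was 0.053, 0.48 and 0.047 for the first 3 of these, and turned to -0.25 for the merged domain, -0.15 for the RefSeq gene and -0.40, -0.52 and -0.85 per kb of gene peaks, merged domain and window. At E16.5 against E12.5 it was -0.34 scaled to all counts, -0.057 over the window, -0.19 without the deepest nuclei, -0.21 for the RefSeq gene and -0.37 per kb of window. Scaled to all counts, the 3 ratios were 0.16, -0.51 and -0.34 for the merged domain and 0.071, -0.21 and -0.14 for the window. The merged domain joins the separate E14.5 peaks by construction.

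Without thinning the shares of nuclei with Hic1 were 31.0%, 33.2% and 63.2%, and at E14.5 they were 10.6% with another seed and 14.3% for the merged domain. Panel loci called higher at E12.5 numbered 3 with another seed and 2 without the deepest nuclei, which also called 2 lower. At E14.5, 0 were higher with another seed, own depth, no deepest nuclei or the merged domain, and 2, 0 and 2 were lower with another seed, no deepest nuclei and the merged domain. At E16.5, 0 were higher or lower at own depth, and 1 was lower with another seed or without the deepest nuclei. At own depth within classes of promoter share, 0 were higher at E14.5 and 0 higher or lower at E16.5. The shares of all genes called with another seed and at own depth are given above. No such share was computed without the deepest nuclei, for the merged domain or within classes of promoter share. These counts are therefore not a result about the loci. Ratios turned for Prg4 (1.01 with another seed, 1.83 without the deepest nuclei), Lum (1.04 with another seed), Myh11 (0.958, 0.992 and 0.938 with another seed, own depth and no deepest nuclei) and Cldn1 (1.02 with another seed). The cause was not tested beyond the seed itself.

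The Hic1 ratio in E16.5 chondrogenic nuclei was 0.688 at a limit set for the top 5% of nuclei, which was called. Within classes of promoter share it was 0.708, past the limit, but with no interval of its own. The call there used the intervals of the comparison without classes. Neither value was ranked among genes, so how common such ratios are in these settings was not tested. The Smg6 intron element was 12.2 at that limit, 12.3 without the deepest nuclei and 6.93 within classes of promoter share. Peaks that turned were 75152710-75153291 in chondrogenic nuclei (1.30 at the common depth), 75116340-75116832 in tenogenic nuclei (0.940 without the deepest nuclei), 75199883-75200586 in dermal fibrogenic nuclei (0.941 at the common depth) and the Dph1 promoter in epithelial nuclei (0.944 at the common depth). E12.5, the shallowest library, was compared at 1309 fragments only.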

Other observations

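Among 5336 autosomal genes open in at least 5% of thinned nuclei in every library, those with the highest mean log2 co-opening ratio with Hic1 were Glce (0.33), Inca1 (0.32), Gnb2 (0.31), Tyw1 (0.31) and Vat1 (0.30), and those with the lowest were Ccr9 (-0.33), Inhba (-0.29), Mettl8 (-0.29), Arhgef26 (-0.29) and Aox2 (-0.28). Glce is an epimerase of heparan sulphate synthesis and Inhba is the activin A subunit. At E16.5 and its own depth the ratios of the first group lay between 1.002 and 1.076 and those of the second between 0.922 and 1.041, with Ccr9 above 1. At E14.5 and its own depth Tyw1 of the first group was at 0.980, and Mettl8 (1.061) and Ccr9 (1.011) of the second were above 1. The thinnings at both depths were drawn from the same nuclei, so the values at the greater depth are not a separate check.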
